A study of Mus musculus with 18 samples.

Results

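The 10 genes described here encode neuropeptides of the hypothalamus: *Hcrt*, *Pmch*, *Avp*, *Oxt*, *Trh*, *Agrp*, *Pomc*, *Ghrh*, *Cartpt* and *Gal*. They were chosen by symbol, matched to Ensembl identifiers through GENCODE release M21, and make up 10 of the 53468 genes counted. The choice was made with their levels in these libraries known, so the levels, and the difference between the dissections, are given as a description without a test. The question was which hypothalamic nuclei came with the forebrain and which with the midbrain dissection.

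Poly(A) RNA of dissected forebrain, midbrain and hindbrain was sequenced at postnatal day 25 from 3 Fmr1CRE knock-in mice and from 3 wild-type mice of their litter, with 1 library per mouse and region and 3 libraries per group. Fmr1CRE mice carry a single nucleotide change, introduced with CRISPR/Cas9, in a cis-regulatory element near *Fmr1*, the gene of fragile X syndrome. The lines were kept on a C57BL/6 background, several independent lines were made, and the sources used here do not name the line sequenced. No allele or agent shared by both genotypes beyond this background is named, and the borders along which the brains were dissected are not given either.

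Neuropeptides are made as precursors, packed into dense-core vesicles and cut into active peptides by prohormone convertases. Because each hypothalamic nucleus holds its own set of peptide neurons, their transcripts serve as landmarks in a dissection. Orexin (*Hcrt*) and melanin-concentrating hormone (*Pmch*) neurons lie in the lateral hypothalamus, in the tuberal part of its length. Vasopressin (*Avp*) and oxytocin (*Oxt*) neurons lie further forward in the paraventricular and supraoptic nuclei, and *Avp* is also made in the suprachiasmatic nucleus. The arcuate nucleus at the base of the tuberal hypothalamus holds the neurons of *Agrp*, *Pomc* and *Ghrh*. *Trh*, *Cartpt* and *Gal* are made in several hypothalamic nuclei and also outside the hypothalamus, *Cartpt* for example in the Edinger-Westphal nucleus of the midbrain and *Gal* in the locus coeruleus.

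The 4 genes with the largest differences between libraries are shown first by the 80 bases before their start sites, since they moved together across libraries. The sequences are from RefSeq for GRCm38.p6 and run 5′ to 3′ on the strand of the gene. Capitals mark TATAAA in *Hcrt* (chr11:100762932-100763011, minus strand) and *Pmch* (chr10:88090992-88091071, plus strand), and CATAAA in *Avp* (chr2:130582589-130582668, minus strand) and *Oxt* (chr2:130576089-130576168, plus strand).
Hcrt: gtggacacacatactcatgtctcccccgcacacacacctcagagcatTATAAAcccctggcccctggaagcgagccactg
Pmch: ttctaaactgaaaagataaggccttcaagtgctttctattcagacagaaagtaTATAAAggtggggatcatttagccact
Avp: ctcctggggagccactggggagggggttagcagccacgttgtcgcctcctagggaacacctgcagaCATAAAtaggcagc
Oxt: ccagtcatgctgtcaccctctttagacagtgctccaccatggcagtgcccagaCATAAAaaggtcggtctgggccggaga
Of the members, 9 had RefSeq promoters, 10 in all. TATAAA, searched on the strand of the gene, was in 4 of these 10 windows and in 3.37% of 32851 promoter windows of the same length, or 4.75% on either strand. CATAAA was in 2 of the 10, in 2.01% of all windows on the strand of the gene and in 3.38% on either strand. It lies within the longest run shared by the *Avp* and *Oxt* windows, which are the 2 that hold it. Its count among the members is therefore not read against these shares. Such a match is a description of the letters and not of a factor's binding.

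*Avp* and *Oxt* are neighbours on mouse chromosome 2. In GRCm38 *Oxt* lies at chr2:130576173-130577054 on the plus strand and *Avp* at chr2:130580620-130582554 on the minus strand, 3565 bases apart and facing each other. Each has 3 exons, and the coding sequence for the neurophysin part of the precursors is nearly the same in both. The longest identical run has 127 bases, made of the last 2 bases of exon 1 and 125 bases of exon 2. It is shown because reads of 50 bases that fall inside it cannot be placed on either gene:
Avp and Oxt: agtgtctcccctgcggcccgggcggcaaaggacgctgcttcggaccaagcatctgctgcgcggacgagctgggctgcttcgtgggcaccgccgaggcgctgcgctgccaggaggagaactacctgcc
Of the 31-base sequences in the annotated transcripts, 17.7% of those of *Avp* and 21.9% of those of *Oxt* were shared with another gene, so the split of reads between both genes carries some uncertainty. In *Pmch* (chr10:88091072-88092375, plus strand) 52.4% were shared with *Parpbp* on the opposite strand, and whether strand was used in the counting is not given in the sources used here. *Parpbp* itself stood at 0.245 to 1.84 CPM in forebrain and midbrain, where CPM is the gene's count relative to the library size, with library sizes scaled by the trimmed mean of M-values (TMM). CPM is the unit of all levels below.

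Library totals ran from 22455512 to 28061185 counts. The genotype labels of the forebrain libraries of replicate 3 are open to doubt. Between the mice numbered 3 of both genotypes, 53 genes differed at least 4-fold and alike in midbrain and in hindbrain, and 37 of them went the opposite way in forebrain against 16 the same way. For the mice numbered 1 the split was 21 opposite and 32 the same, and for those numbered 2 it was 27 and 27. These counts do not settle which mouse a library came from. Results that rest on these libraries are therefore also given with the forebrain libraries of replicate 3 exchanged between the genotypes. Other libraries stood apart in tissue markers. The sum of 6 striatal genes was 456 CPM in the forebrain of Fmr1CRE replicate 1 and 845 to 1310 CPM in the other forebrain libraries. In the midbrain of Fmr1CRE replicate 2 it was 361 CPM against 97.8 to 178 CPM in the other midbrain libraries, and the sum of 3 raphe genes there was 15.5 CPM against 39.8 to 53.0 CPM. The sum of 4 genes of midbrain dopamine neurons was 22.4 CPM in the forebrain of Fmr1CRE replicate 3 and 1.62 to 9.31 CPM in the other forebrain libraries. The part of these differences in the results below was not tested.

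*Hcrt*, the precursor of the wake-promoting orexins, was found mostly in one dissection or the other, depending on the mouse. In forebrain it stood at 0.0395, 0.0411 and 6.86 CPM in Fmr1CRE replicates 1, 2 and 3, and at 7.22, 8.42 and 2.62 CPM in wild-type replicates 1, 2 and 3. In midbrain the order was turned round, with 13.8, 7.85 and 2.05 CPM in Fmr1CRE mice and 0.392, 0.0408 and 0.0342 CPM in wild-type mice. In counts, Fmr1CRE replicate 1 had 1 read in forebrain and 340 in midbrain, while wild-type replicate 2 had 209 in forebrain and 1 in midbrain. Fmr1CRE replicate 3 was the mouse with a clear level in both. Hindbrain held at most 0.126 CPM. In bulk tissue, fewer cells of a type and less RNA per cell cannot be told apart.

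*Pmch*, the precursor of melanin-concentrating hormone, made by neighbours of the orexin neurons, had the widest range in forebrain of the 10 genes. It stood at 0.158, 0.411 and 25.7 CPM in the Fmr1CRE forebrain libraries and at 29.7, 47.0 and 11.7 CPM in the wild-type ones. In midbrain it reached 59.0, 35.4 and 25.3 CPM in Fmr1CRE mice against 10.2, 0.489 and 0.24 CPM in wild-type mice. The highest library was 298 times the lowest in forebrain and 246 times the lowest in midbrain. Among the wild-type midbrain libraries replicate 1 stood out, with the highest level of both *Pmch* and *Hcrt*.

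*Avp*, the precursor of vasopressin, which controls water balance, followed the same split. Its forebrain levels were 0.907, 2.22 and 14.4 CPM in Fmr1CRE mice and 19.6, 20.5 and 14.6 CPM in wild-type mice. Its midbrain levels were 19.8, 18.5 and 6.5 CPM in Fmr1CRE mice, a mean of 14.9 ± 7.34 CPM (SD, n = 3), and 0.697, 0.367 and 0.205 CPM in wild-type mice, a mean of 0.423 ± 0.25 CPM (SD, n = 3). The genotypes did not overlap in either dissection, although in forebrain Fmr1CRE replicate 3 lay just under the lowest wild-type library. Over the 6 midbrain libraries the highest level was 96.5 times the lowest.

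*Oxt*, the precursor of oxytocin, which acts in milk let-down, birth and social behaviour, stood at 1.38, 4.73 and 8.69 CPM in the Fmr1CRE forebrain libraries and at 19.3, 13.2 and 14.7 CPM in the wild-type ones. In midbrain it stood at 15.4, 10.8 and 1.24 CPM in Fmr1CRE mice and at 0.218, 0.163 and 0.137 CPM in wild-type mice. The genotypes again did not overlap in either dissection. All 3 Fmr1CRE forebrain libraries held *Oxt* reads, 35, 115 and 204 of them, where the wild-type midbrain libraries held 4 or 5. *Trh*, whose peptide releases thyrotropin and which is made in the paraventricular nucleus and elsewhere, differed less. It stood at 1.46, 4.48 and 7.83 CPM in Fmr1CRE and 9.42, 9.51 and 7.24 CPM in wild-type forebrain, and at 9.77, 10.05 and 6.62 CPM in Fmr1CRE and 5.18, 4.0 and 2.98 CPM in wild-type midbrain. Its hindbrain levels, 10.8 to 24.1 CPM, were above every forebrain and midbrain library.

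The arcuate genes were low throughout. *Agrp*, the hunger-promoting antagonist of melanocortin receptors, stood at 0.0395, 0.123 and 0.298 CPM in Fmr1CRE and 0.308, 0.604 and 0.0391 CPM in wild-type forebrain, which is 1 to 15 counts. In midbrain it stood at 0.936, 1.06 and 1.0 CPM in Fmr1CRE mice and at 0.871, 0 and 0.0685 CPM in wild-type mice. Wild-type replicate 1 was thus close to the Fmr1CRE mice in midbrain, as it was not for *Avp* or *Oxt*. The annotated span of *Agrp* overlaps 7 other genes, and at 0 to 28 counts per library its values are uncertain. *Ghrh*, the releasing hormone for growth hormone, stood at 0.158, 0.206 and 0.341 CPM in Fmr1CRE and 0.616, 0.645 and 0.274 CPM in wild-type forebrain, and at 0.773, 0.607 and 0.521 CPM in Fmr1CRE and 0.218, 0.163 and 0.137 CPM in wild-type midbrain. It followed the split of *Avp* and *Oxt* at 4 to 19 counts per library. *Pomc*, the precursor of melanocortins and beta-endorphin, varied little, from 1.74 to 2.74 CPM in forebrain, 1.39 to 3.21 CPM in midbrain and 1.47 to 2.56 CPM in hindbrain.

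Because the pituitary is the main source of *Pomc* in the body, 9 pituitary genes were checked in the 12 forebrain and midbrain libraries. Their sum lay between 0.426 and 2.96 CPM, *Fshb* was at 0 counts in all 12, and no gene of the list exceeded 2.29 CPM in any of these libraries.

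*Cartpt*, whose peptide reduces feeding, did not share the pattern. It stood at 5.84, 11.5 and 10.6 CPM in Fmr1CRE and 10.5, 13.3 and 11.1 CPM in wild-type forebrain, and at 24.8, 18.1 and 22.5 CPM in Fmr1CRE and 20.8, 19.0 and 23.8 CPM in wild-type midbrain. All 6 midbrain libraries were above all 6 forebrain libraries, and within midbrain the highest was 1.37 times the lowest. *Ucn*, the peptide gene that marks the Edinger-Westphal nucleus, was at 0.642 to 1.16 CPM in midbrain and 0.0789 to 0.235 CPM in forebrain, and its part in the *Cartpt* level was not tested. *Gal*, the precursor of galanin, stood at 1.14, 1.28 and 2.17 CPM in Fmr1CRE and 2.55, 2.18 and 2.58 CPM in wild-type forebrain. In midbrain it stood at 3.21, 2.39 and 2.25 CPM in Fmr1CRE and 1.66, 1.84 and 1.57 CPM in wild-type mice. Hindbrain held more of it, 3.87 to 7.61 CPM, and the genotypes did not overlap in forebrain or midbrain, though in forebrain the nearest libraries stood at 2.17 and 2.18 CPM.

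**Figure D1:**
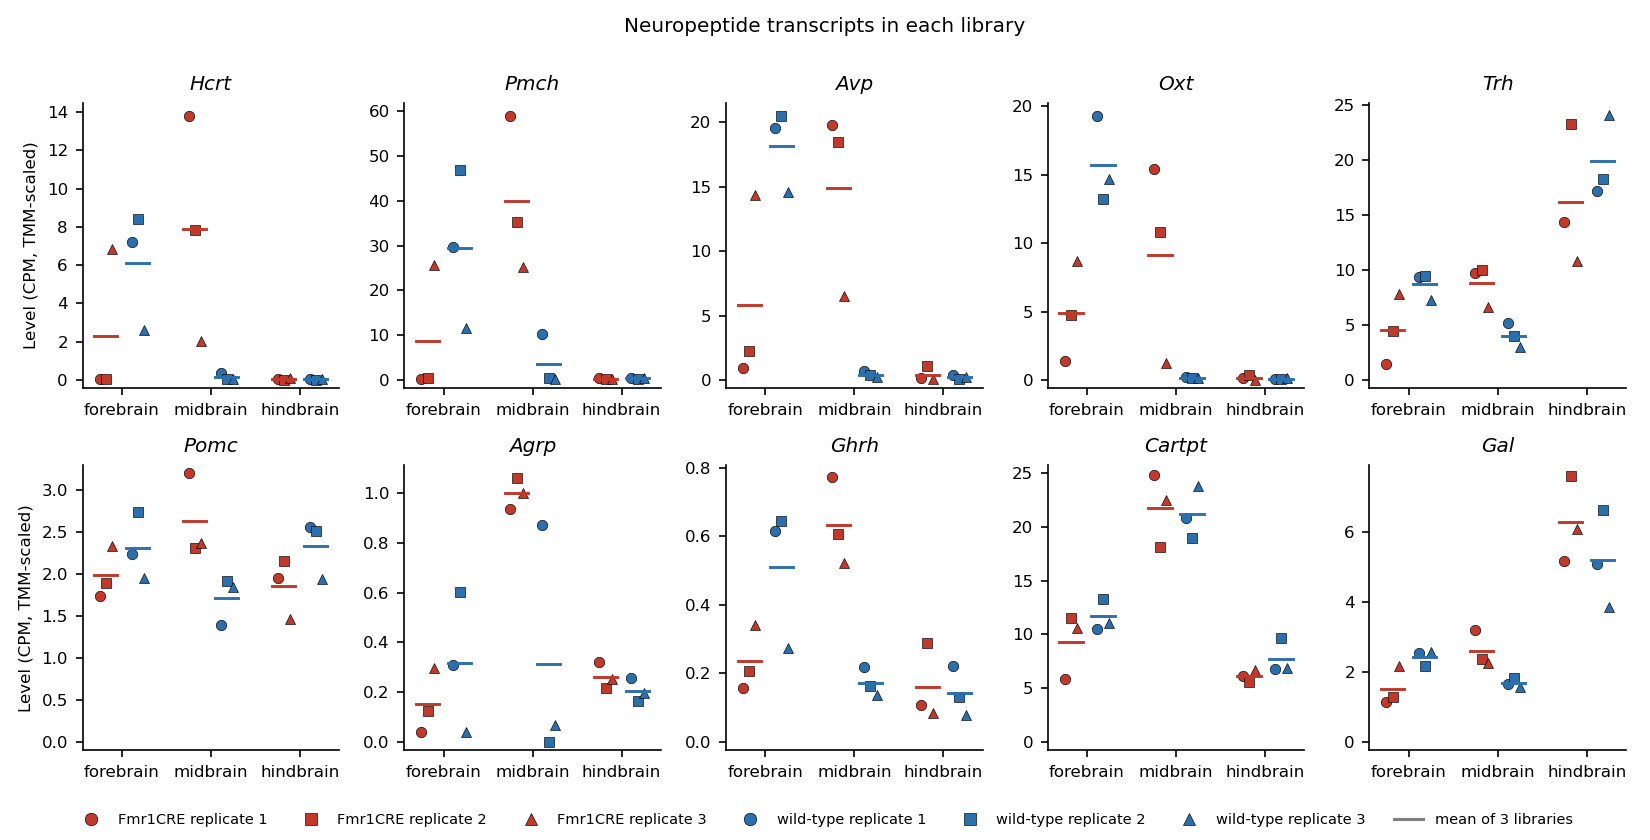
Level in CPM (TMM-scaled) of each of the 10 genes in the 18 libraries, by region. Each point is 1 library, red for Fmr1CRE and blue for wild-type, with circle, square and triangle for replicates 1, 2 and 3, and each bar is the mean of 3. *Hcrt*, *Pmch*, *Avp* and *Oxt* are high in wild-type forebrain and Fmr1CRE midbrain, with Fmr1CRE replicate 3 high in both dissections for *Pmch* and *Avp*, while *Cartpt* is above 18 CPM in all 6 midbrain libraries.

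Set side by side, 3 of the 10 genes had Fmr1CRE libraries below all wild-type libraries in forebrain, *Avp*, *Oxt* and *Gal*, where 10.2% of all genes tested had genotypes that did not overlap in either direction. With the forebrain libraries of replicate 3 exchanged, these 3 genes and *Cartpt* overlapped between genotypes in forebrain. The other 6 genes, *Hcrt*, *Pmch*, *Trh*, *Agrp*, *Pomc* and *Ghrh*, then had Fmr1CRE libraries below all wild-type libraries, where 19.6% of all genes did not overlap. In midbrain the Fmr1CRE libraries lay above all wild-type libraries for 9 genes, with *Cartpt* as the exception, and 11.3% of all genes did not overlap there. In hindbrain *Cartpt* alone did not overlap, being lower in Fmr1CRE mice, against 10.9% of all genes. The 10 genes were chosen with these levels in view, so these counts are not read against the background.

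The share of a gene in forebrain, its forebrain CPM as a percentage of the forebrain and midbrain CPM of the same mouse, places the mice in an order. For *Oxt* the share was 8.22%, 30.5% and 87.5% in Fmr1CRE mice 1, 2 and 3, and 98.9%, 98.8% and 99.1% in the wild-type mice. For *Avp* it was 4.38%, 10.7% and 69.0% in Fmr1CRE mice, and 96.6%, 98.2% and 98.6% in wild-type mice. The wild-type mice thus had nearly all of both in forebrain, Fmr1CRE mice 1 and 2 had most of both in midbrain, and Fmr1CRE mouse 3 lay between.

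The lateral hypothalamic genes separated the mice in the same way. For *Hcrt* the share was 0.284%, 0.522% and 77.0% in Fmr1CRE mice, and 94.8%, 99.5% and 98.7% in wild-type mice. For *Pmch* it was 0.267%, 1.15% and 50.4% in Fmr1CRE mice, and 74.4%, 99.0% and 98% in wild-type mice. In wild-type mouse 1 *Pmch* was therefore divided between the dissections while *Avp* and *Oxt* were not. The order of the genes within a mouse does not depend on library scaling. The share of *Oxt* was above that of *Avp* in 6 of 6 mice, or 5 of 6 with the exchanged libraries, and above that of *Pmch* in 5 of 6, or 4 of 6. *Hcrt* was above *Pmch* in 5 of 6 mice under both assignments.

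The order of a pair of genes was not beyond counting error in every mouse. By exact Clopper-Pearson 95% intervals the share of *Oxt* was above that of *Avp* in 2 of 6 mice, Fmr1CRE mice 2 and 3, and the intervals overlapped in the other 4. It was above that of *Pmch* in 4 of 6 mice, and *Hcrt* was above *Pmch* in 2 of 6, Fmr1CRE mouse 3 and wild-type mouse 1. From the counts, Fmr1CRE mouse 2 had 28.8% of its *Oxt* reads in forebrain, with an interval of 24.4% to 33.5%. Its *Avp* share was 9.96% with an interval of 7.57% to 12.8%, and its *Pmch* share 1.06% with an interval of 0.51% to 1.94%. In this mouse the intervals of the 3 genes were apart. In Fmr1CRE mouse 3 they were 81.8% to 90.9% for *Oxt*, 63.4% to 71.7% for *Avp* and 46.0% to 51.7% for *Pmch*, which were apart as well. The interval of *Hcrt* in that mouse, 69.6% to 81.5%, overlapped that of *Avp*. These intervals cover counting error only and not the spread between mice.

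Among the arcuate genes the share was lower than for *Oxt* in 5 of 6 mice for *Agrp* and *Ghrh*. For *Pomc* this held in 4 of 6, and in Fmr1CRE mice 1 and 2 its share was higher than that of *Oxt*. In hindbrain *Agrp* stood at 0.165 to 0.32 CPM and *Ghrh* at 0.079 to 0.288 CPM, within reach of several forebrain and midbrain values. *Pomc* stood at 1.47 to 2.56 CPM in hindbrain, about as high as in forebrain and midbrain. *Trh*, at 10.8 to 24.1 CPM, and *Gal*, at 3.87 to 7.61 CPM, were higher in hindbrain than in every forebrain and midbrain library. The part of such a level outside the hypothalamus in these shares was not tested. *Ghrh* had 17.0%, 25.3% and 39.5% in forebrain in Fmr1CRE mice, and 73.9%, 79.8% and 66.7% in wild-type mice. *Agrp* had 4.04%, 10.4% and 22.9% in Fmr1CRE mice, and 26.1%, 100% and 36.4% in wild-type mice. In wild-type mouse 1, where 7 of 27 *Agrp* reads were in forebrain, the interval was 11.1% to 46.3%, while for *Oxt* it was 97.4% to 99.6%. *Pomc* moved within 35.1% to 61.7%, and *Cartpt* within 19.0% to 41.2% with no split by genotype. *Trh* ranged from 13% to 70.8% and *Gal* from 26.2% to 62.1%, each lower in all 3 Fmr1CRE mice than in all 3 wild-type mice.

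**Figure D2:**
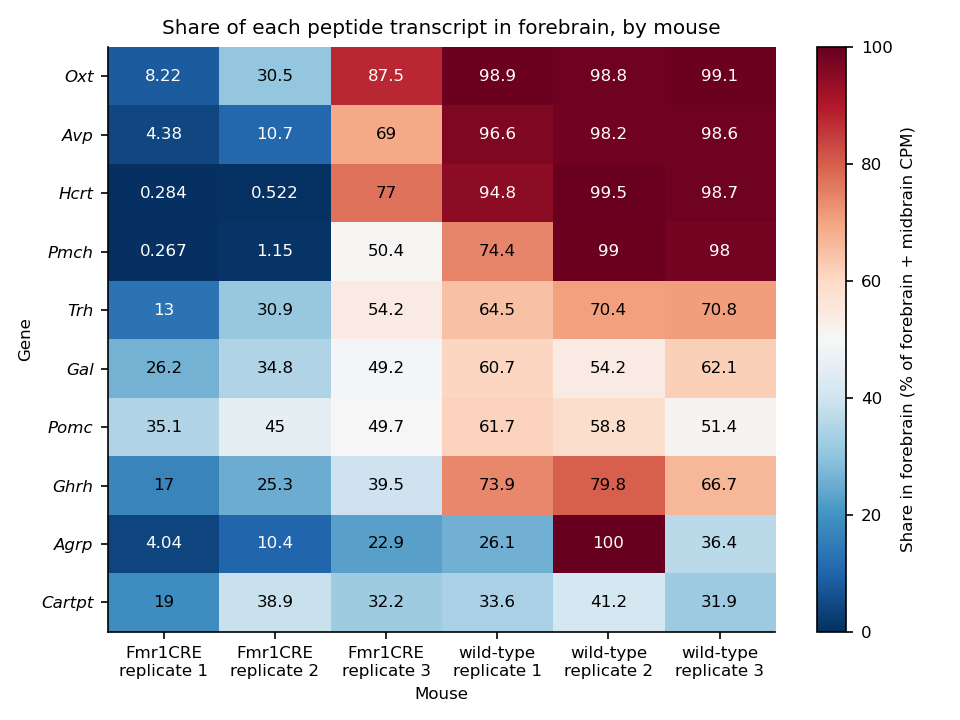
Share of each gene in forebrain per mouse, in percent of its forebrain and midbrain CPM, with genes in rows and the 6 mice in columns. The wild-type mice hold 94.8% or more of *Hcrt*, *Avp* and *Oxt* in forebrain, Fmr1CRE mice 1 and 2 hold 30.5% or less, and Fmr1CRE mouse 3 lies between, with 69.0% to 87.5%.

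Counting how many of the 10 genes had more than 50% in forebrain gave 0, 0 and 5 in Fmr1CRE mice 1, 2 and 3, and 8, 9 and 8 in wild-type mice 1, 2 and 3. The median share over the 10 genes was 10.6%, 27.9% and 50.0% in Fmr1CRE mice, and 69.2%, 89.0% and 68.8% in wild-type mice. With the forebrain libraries of replicate 3 exchanged, the share of Fmr1CRE mouse 3 became 56.2% for *Hcrt*, 31.7% for *Pmch*, 69.2% for *Avp* and 92.2% for *Oxt*. The wild-type mouse 3 kept 99.5%, 99.1%, 98.6% and 98.4% of these genes in forebrain under the exchange. Its midbrain library held 0.0342, 0.24, 0.205 and 0.137 CPM of them, so either forebrain library gives that mouse a high share. Its place with the other wild-type mice therefore does not bear on the exchange.

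Adding the forebrain and midbrain CPM of a mouse gives a level over both dissections, although it adds levels of tissue pieces of unequal size and is no amount per brain. The part of the border between the dissections in the spread of the levels was not tested. The sum of *Avp* was 20.8 ± 0.115 CPM (SD, n = 3) in Fmr1CRE and 18.6 ± 3.33 CPM (SD, n = 3) in wild-type mice, and its highest mouse was 1.41 times its lowest. The sum of *Oxt* was 14.1 ± 3.65 CPM (SD, n = 3) in Fmr1CRE and 15.9 ± 3.22 CPM (SD, n = 3) in wild-type mice. These sums of *Avp* and *Oxt* spanned 1.41-fold and 1.96-fold over the 6 mice, against 22.6-fold and 14.0-fold in forebrain alone and 96.5-fold and 113-fold in midbrain alone.

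The sums of the lateral hypothalamic genes were less even. *Hcrt* ranged from 2.66 to 13.9 CPM over the 6 mice, 5.23-fold, and *Pmch* from 12 to 59.2 CPM, 4.93-fold. In both genes the lowest mouse was wild-type replicate 3. With the forebrain libraries of replicate 3 exchanged, the range of *Hcrt* was 2.98-fold and that of *Pmch* 2.29-fold, while that of *Oxt* widened to 2.21-fold and that of *Avp* was 1.45-fold. *Pomc*, *Trh*, *Cartpt* and *Gal* sums spanned 1.36-fold, 1.43-fold, 1.18-fold and 1.21-fold.

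The study compared genotypes within each region, and the same comparison was made here with edgeR's quasi-likelihood test over all genes, with Benjamini-Hochberg adjustment. Since the list was drawn up with these libraries in view, the p-values of its members carry no independent weight. In forebrain 8 members had enough counts to be tested, and all 8 were lower in Fmr1CRE mice, with a median log2 fold change of -1.16 against 0.000945 over all genes. *Oxt* had a log2 fold change of -1.66 (SE 0.52, 95% interval -2.87 to -0.45, adjusted p = 0.806), *Avp* -1.64 (SE 0.81, interval -3.51 to 0.23, adjusted p = 0.806) and *Hcrt* -1.41 (SE 1.32, interval -4.47 to 1.65, adjusted p = 0.834). With the forebrain libraries of replicate 3 exchanged, *Oxt* had -0.96, *Avp* -1.60 and *Hcrt* -3.02 (edgeR adjusted p = 0.586, 0.464 and 0.354), and *Pmch* went from -1.77 to -3.04 (adjusted p = 0.370). Without Fmr1CRE replicate 3 the fitted values were -2.32 for *Oxt*, -3.50 for *Avp*, -7.02 for *Hcrt* and -6.63 for *Pmch* (edgeR adjusted p = 0.133 for *Oxt* and 0.116 for the others), so the size of the forebrain difference rested on that library. By edgeR 0 members passed, 1 had an unadjusted p under 0.05, and DESeq2 called 0. Of all 18467 genes edgeR called 0, or 0%, 5.43% had an unadjusted p under 0.05, and DESeq2 called 31.

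In midbrain all 10 members could be tested and all 10 had a positive log2 fold change, with a median of 1.80 against -0.00455 over all genes. *Avp* was higher in Fmr1CRE mice by a log2 fold change of 5.17 (SE 0.57, interval 3.85 to 6.49, unadjusted p = 2.32e-05, adjusted p = 0.106). *Hcrt* had 5.72 (SE 0.96, interval 3.48 to 7.95, adjusted p = 0.444), *Oxt* 5.71 (SE 0.99, interval 3.42 to 8.01, adjusted p = 0.453) and *Pmch* 3.50 (SE 1.05, interval 1.06 to 5.95, adjusted p = 0.770). *Cartpt* had 0.04 (SE 0.15, interval -0.32 to 0.40, adjusted p = 0.983). By edgeR 0 members passed and 8 had an unadjusted p under 0.05, where 0.00543% and 6.17% of all genes did. DESeq2 called 4 members, with adjusted p = 4.42e-20 for *Avp*, 4.31e-05 for *Oxt*, 0.00267 for *Hcrt* and 0.0213 for *Trh*, and 62 genes in all. Without Fmr1CRE replicate 3 edgeR called *Oxt* (log2 fold change 6.23, adjusted p = 0.00295) and *Avp* (5.53, adjusted p = 0.0134), of 4 genes called in all.

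In hindbrain 5 members could be tested, *Pmch*, *Pomc*, *Trh*, *Cartpt* and *Gal*, with log2 fold changes between -0.61 and 0.26. Of these, edgeR called 0, 0 had an unadjusted p under 0.05 and DESeq2 called 0. Of all 19112 genes edgeR called 0%, 5.13% had an unadjusted p under 0.05 and DESeq2 called 60. In the sum of forebrain and midbrain counts per mouse the members' median was 0.21. *Avp* had 0.20 (interval -0.16 to 0.57, adjusted p = 0.876), *Oxt* -0.13 (interval -0.67 to 0.41, adjusted p = 0.937) and *Hcrt* 0.75 (interval -0.23 to 1.73, adjusted p = 0.872). With the exchanged libraries these became 0.24, 0.28 and 0.28 (edgeR adjusted p = 0.757, 0.813 and 0.854), so that *Oxt* changed sign. In this sum edgeR called 0 members of 10 and 0% of all genes, and 0 members had an unadjusted p under 0.05 where 5.02% of all genes did. DESeq2 called 0 members and 21 genes in all. The sums thus leave room for a difference of up to 0.67 on the log2 scale in *Avp* and *Oxt*, and of up to 1.73 in *Hcrt*.

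**Figure D3:**
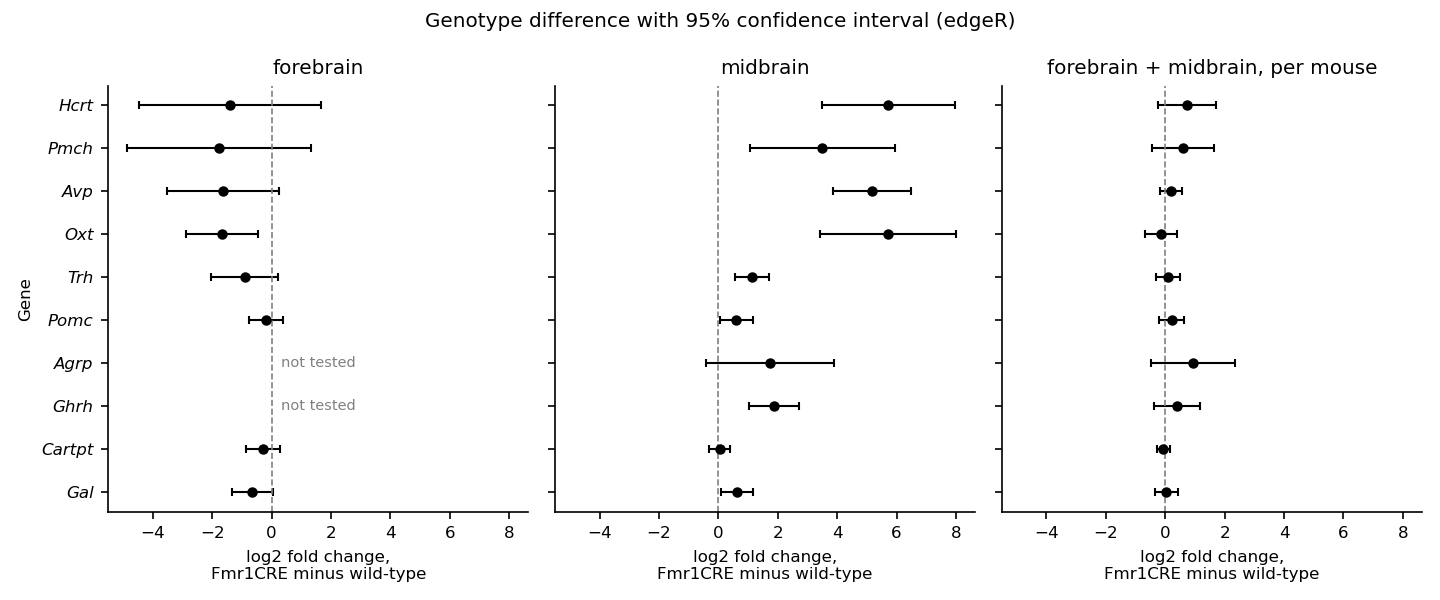
Log2 fold change of Fmr1CRE over wild-type mice by edgeR for each gene in forebrain, in midbrain and in the sum of both per mouse; bars are 95% confidence intervals, with 3 mice per genotype. *Agrp* and *Ghrh* were not tested in forebrain. *Avp*, *Oxt*, *Hcrt* and *Pmch* lie below 0 in forebrain and above 3 in midbrain, and the sums lie between -0.13 and 0.93.

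Whether the genotype difference itself differed between the dissections was tested as an interaction, with the libraries of a mouse taken as independent. The interaction is the difference in midbrain minus that in forebrain. It was 7.37 on the log2 scale for *Oxt* (SE 1.23, adjusted p = 0.387), 6.80 for *Avp* (SE 1.22, adjusted p = 0.387) and 7.11 for *Hcrt* (SE 2.03, adjusted p = 0.700). By edgeR 0 of the 10 members and 0% of all 19330 genes passed, and 8 members and 7.09% of all genes had an unadjusted p under 0.05. DESeq2 called 1 member, *Oxt* (adjusted p = 2.26e-05), and 24 genes in all, and gave no p for *Avp*. With the exchanged libraries the interaction was 6.68 for *Oxt*, 6.78 for *Avp* and 8.75 for *Hcrt*, and edgeR gave adjusted p = 0.161, 0.156 and 0.161. Without Fmr1CRE replicate 3 edgeR called *Avp* (9.05, adjusted p = 0.000972), *Oxt* (8.57, adjusted p = 0.00353) and *Hcrt* (13.21, adjusted p = 0.00991), of 7 genes called in all.

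The genes fared unlike one another in their absolute level as well. Per kb of effective transcript length, the median forebrain level ran from 45.6 CPM per kb for *Pmch*, 30.3 for *Oxt* and 29.2 for *Avp* down to 1.1 for *Ghrh* and 0.416 for *Agrp*. In midbrain *Pmch* (43.3) and *Cartpt* (36.3) came first and *Ghrh* (1.32) last. In both dissections each gene's range over the 6 libraries overlapped that of its neighbour in the order. In hindbrain *Trh* (13.1), *Gal* (11.7) and *Cartpt* (11.3) led and overlapped one another. *Pomc* (2.1) lay below all 3 without overlap. The medians of the other 6 genes, from *Pmch* (0.858) to *Hcrt* (0.0846), were below that of *Pomc*, though the highest *Avp* library, at 2.11, reached into the range of *Pomc*.

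Other genes of the peptide systems were tested between forebrain and midbrain over the 12 libraries, from lists of receptors, processing enzymes and markers of each nucleus. The libraries of a mouse were again taken as independent. Over all genes 34.1% had an unadjusted p under 0.05 and edgeR called 20.2%, 9.54% higher in forebrain and 10.7% higher in midbrain, with a median log2 difference of 0.01. Of 15 receptors of the 10 peptides, 10 could be tested, 1 was higher in forebrain and 2 in midbrain. The orexin receptor *Hcrtr2* was at 2.59 ± 0.578 CPM (SD, n = 6) in forebrain and 5.09 ± 0.554 CPM (SD, n = 6) in midbrain (log2 difference -0.996, SE 0.16, adjusted p = 0.00118). *Hcrtr1*, the other orexin receptor, had -0.94 (SE 0.13, adjusted p = 0.000559). *Mchr1*, the receptor of the *Pmch* peptide, was higher in forebrain by 0.42 (SE 0.09, adjusted p = 0.009). The receptor *Avpr2* of vasopressin, known for its role in the kidney, had 0 counts in all 12 libraries.

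Of 10 genes for processing and storage of peptides, 4 were higher in midbrain and 0 in forebrain, *Chga*, *Scg2* and *Chgb*, which encode granins, and the convertase *Pcsk1*. Their log2 differences ran from -0.76 (SE 0.12) for *Chga* to -0.35 (SE 0.10) for *Pcsk1*, and the call of *Pcsk1* was lost in 5 of 12 alternatives. Genes of the posterior hypothalamus were also higher in midbrain, *Barhl1* with -5.42 (SE 0.39) and *Foxb1* with -1.62 (SE 0.29), transcription factors of the mammillary region. *Barhl1* stood at 3.91 to 8.49 CPM in every midbrain library and at 0 to 0.468 CPM in forebrain, and *Foxb1* at 1.71 to 3.7 CPM in midbrain and 0.453 to 1.58 CPM in forebrain. The sum of the 3 genes of this list was 9.38 to 14.9 CPM in midbrain and 0.535 to 3.15 CPM in forebrain. In hindbrain it was 3.76 to 6.39 CPM, so these genes are not particular to the hypothalamus. The part of other sources in their midbrain level was not tested.

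Further forward the lists were mixed. Among genes of the suprachiasmatic nucleus *Vip* was higher in forebrain by 0.81 (SE 0.10) and *Prok2* by 1.68 (SE 0.54), while *Grp* (-1.10, SE 0.18) and the transcription factor *Lhx1* (-3.85, SE 0.30) were higher in midbrain. Among genes of the paraventricular and supraoptic nuclei *Crh* was higher in forebrain by 0.76 (SE 0.14) and *Otp* higher in midbrain, with -1.64 (SE 0.38). Of 7 tested arcuate and tuberal genes, *Npy* (0.96, SE 0.12) and *Tac2* (0.71, SE 0.18) were higher in forebrain. *Vip*, *Crh* and *Npy* are also made by cortical interneurons, and the part of those cells was not tested. Of genes known from orexin neurons, *Pdyn* was higher in forebrain (1.37, SE 0.27) and *Lhx9* in midbrain (-1.26, SE 0.31). Of 7 thalamic genes *Tcf7l2* (-1.42, SE 0.27) and *Slc17a6* (-1.31, SE 0.24) were higher in midbrain and 0 in forebrain. The sum of these 7 genes was 303 to 473 CPM in midbrain, 102 to 280 CPM in forebrain and 214 to 284 CPM in hindbrain. The list is thus not particular to the thalamus. The part of other sources in the levels of these genes, *Pdyn* and *Lhx1* was not tested. The call was lost in 8 of 11 alternatives for *Prok2*, 5 of 12 for *Tac2*, 3 of 12 for *Lhx9* and *Chgb*, 2 of 12 for *Mchr1*, 2 of 11 for *Otp* and 1 of 12 for *Pdyn*, mostly where a replicate was left out, with the same direction throughout.

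**Figure D4:**
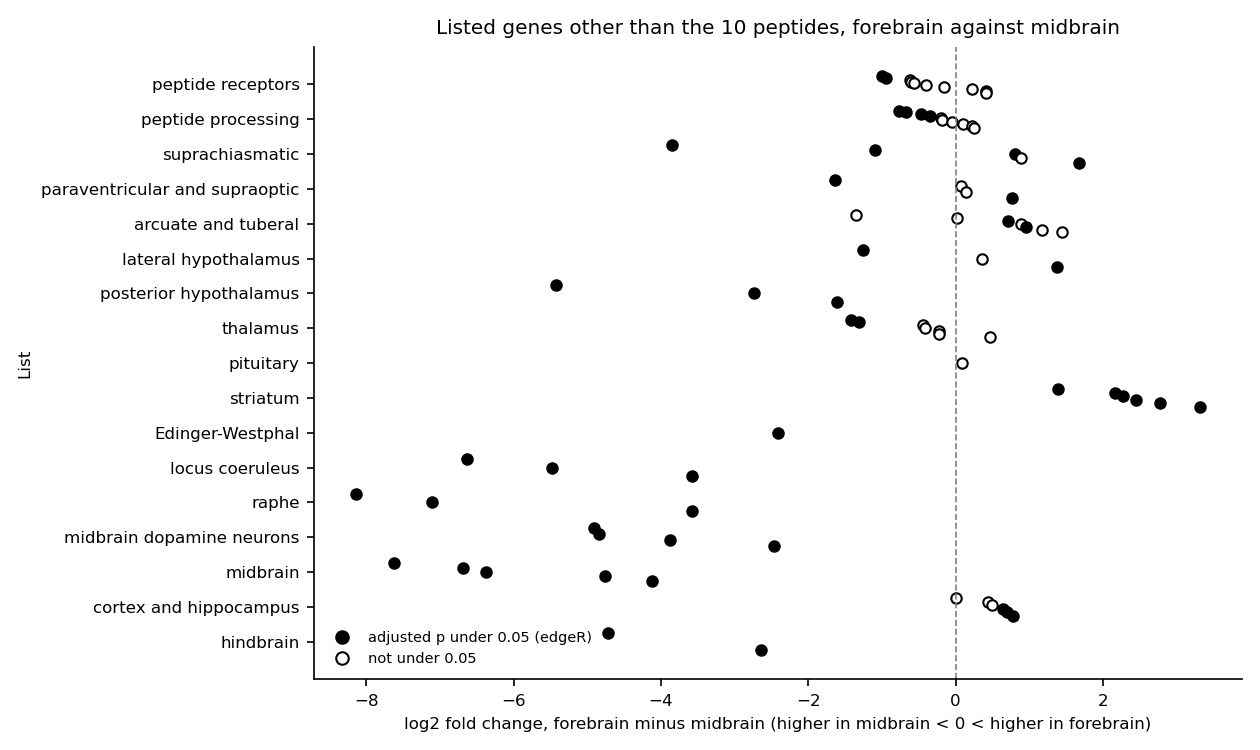
Log2 difference of forebrain minus midbrain by edgeR for the genes of 17 lists, 1 row per list and 1 point per gene, filled where the adjusted p is under 0.05, over 12 libraries. The 6 striatal genes lie to the forebrain side, and the posterior hypothalamic, raphe, locus coeruleus and midbrain genes to the midbrain side, while the lists of the anterior and tuberal hypothalamus lie on both sides of 0.

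The dissections were also checked with markers of other structures. All 6 striatal genes were higher in forebrain, 3 of 6 cortical and hippocampal genes were, and all 5 midbrain genes, 4 genes of dopamine neurons and 3 raphe genes were higher in midbrain. The sum of the cortical and hippocampal list was nevertheless 135 to 250 CPM in midbrain libraries, against 228 to 308 CPM in forebrain and 6.83 to 12.3 CPM in hindbrain. The difference between genotypes was also looked at in the lists. In midbrain 7 of 7 tested arcuate and tuberal genes were higher in Fmr1CRE mice, with a median log2 fold change of 1.01, and 6 of 6 striatal genes were, with a median of 0.97. Other lists lay on the other side. Of 5 midbrain, 3 raphe and 3 locus coeruleus genes tested, 0 were higher in Fmr1CRE mice, with medians of -0.58, -0.53 and -1.05. The median over all genes was -0.00455, and 49% of all genes tested in midbrain were higher in Fmr1CRE mice. Of the 77 listed genes tested in midbrain edgeR called 0, 16 or 20.8% had an unadjusted p under 0.05, and DESeq2 called 5, *Fezf1*, *Pdyn*, *Adora2a* and *Rgs9* among them. The sum of the 6 striatal genes was 157 to 361 CPM in Fmr1CRE and 97.8 to 136 CPM in wild-type midbrain, so striatal genes stood higher and midbrain genes lower beside the hypothalamic peptides, and their part in the result was not tested.

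The genes most like each member were found by Pearson's r of log2 CPM, centred within each dissection, over the 12 forebrain and midbrain libraries, among 16133 or 16134 genes with a mean of at least 1 CPM. These are descriptions over libraries that share mice and a litter. For *Hcrt* the closest 5 were *Pmch* (r = 0.966), *Avp* (0.962), *Ttc19* (0.958), *B3galt1* (0.938) and *Cbx5* (0.937). For *Avp* they were *Hcrt*, *Oxt* (0.953), *Enox2*, *Pmch* and *Iqcg*. For *Oxt* they were *Avp*, *Lhx8* (0.907), *Prkch*, *Enox2* and *Dstyk*, and for *Pmch* they were *Rnf41* (0.976), *Hcrt*, *Crb1*, *Rasgrf2* and *Avp*. *Ghrh*, in spite of its low counts, had *Avp* (0.943) and *Hcrt* (0.927) first, followed by *Ttc19*, *Cdc27* and *Enox2*.

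For *Gal* 1 member, *Hcrt* (0.910), was among the closest 5, with *Zfp871*, *Zfp9*, *Sytl4* and *Cdc73*. For *Trh*, *Pomc*, *Agrp* and *Cartpt* none was. *Trh* was closest to *Zfp292*, *Fzd3*, *Fam13c*, *Asb4* and *Gtf3c4*, and *Pomc* to *Mtmr10*, *Ikzf5*, *Mtmr6*, *Tmem87a* and *Zfp458*. *Agrp* was closest to *Zfp622*, *Ddx31*, *Cntnap5c*, *Arl3* and *Scn7a*, and *Cartpt* to *Dnah7a*, *Rab27b*, *Bcl2l2*, *Kcna3* and *Tmie*. The median r of a gene with the other 9 members was 0.895 for *Hcrt* and *Avp*, 0.829 for *Oxt*, 0.684 for *Agrp* and 0.407 for *Cartpt*, whose values ran from 0.32 to 0.648.

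**Figure D5:**
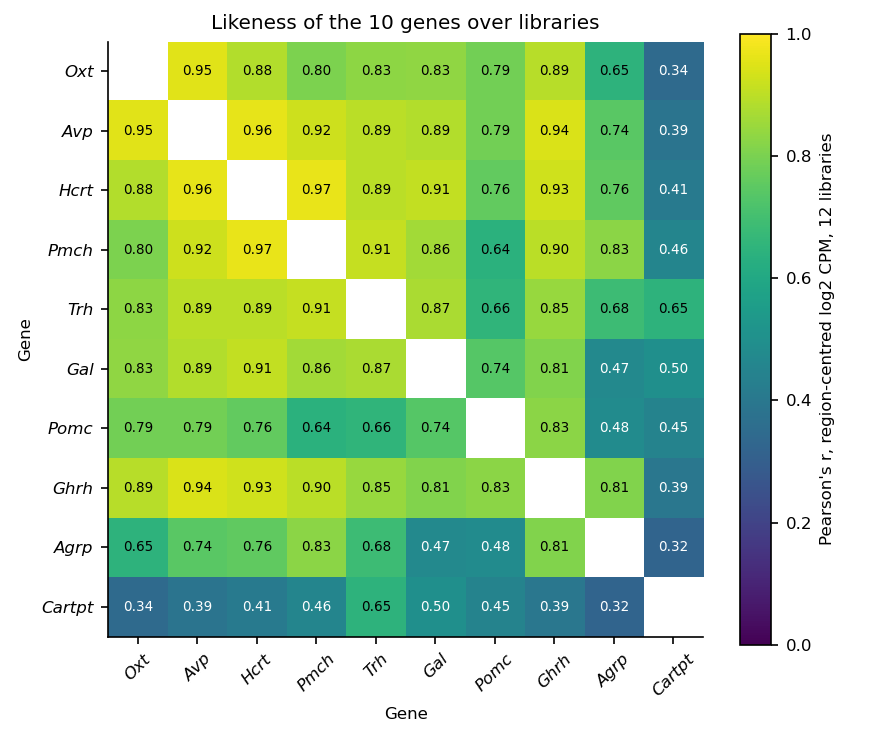
Pearson's r between each pair of the 10 genes, from log2 CPM centred within forebrain and within midbrain, over 12 libraries. The highest value is 0.966 between *Hcrt* and *Pmch*, *Ghrh* reaches 0.943 with *Avp*, and the values of *Cartpt* run from 0.32 to 0.648.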

How the data were processed

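Forebrain, midbrain and hindbrain RNA of 3 Fmr1CRE and 3 wild-type mice gave 18 libraries, read as single ends of 50 bases and run in 2 pools of 9, with no source used here naming which library was in which pool. Per the labels and the methods, the authors quantified transcripts with Salmon 0.14.0 in bcbio_nextgen against mm10 and imported them into DESeq2 1.30.1. The authors deposited whole-number gene counts without normalization, which were used here. The deposited log2 values of a variance-stabilizing transformation were not used, and the expected counts per transcript gave effective lengths only, averaged over libraries.

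Counts were scaled with TMM in edgeR 4.0.16 (R 4.3.3), and log2 CPM used a prior count of 2. Genotypes were compared within each region, in the forebrain and midbrain counts summed per mouse, and as an interaction, with edgeR's default filter on low counts, its quasi-likelihood test, and a threshold of 0.05 after Benjamini-Hochberg adjustment over all genes tested. Forebrain was set against midbrain in the same way for the listed genes. All tests are two-sided. Within a region and in the sums, p-values measure the spread between mice of 1 litter. In the interaction and in forebrain against midbrain they measure the spread between libraries, with the libraries of a mouse taken as independent. With the mouse as a block, *Prok2* and *Tac2* lost their call between forebrain and midbrain. The tests were tested on simulated data. The alternatives were DESeq2 1.42.0, its size factors in edgeR, no filter, a floor of 10 counts in each library, a joint fit of the 18 libraries, a block for the replicate number or the mouse, each replicate left out, and the forebrain libraries of replicate 3 exchanged. Libraries of 1 mouse were matched by the mouse number in their titles, which the columns of the gene counts also carry. Replicates of both genotypes share a number alone.

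The 10 members, the gene lists and the tests were chosen with earlier results of these data known. All members are named, and from each list up to 4 genes with the largest difference between forebrain and midbrain among those past the threshold, as well as genes at 0 in all 12 libraries. The 5 genes most like each member are also named. Genes without a symbol in GENCODE M21, 105 of 53468, held 0.0438% of the counts. Measured columns left unused numbered 0. Results of some listed genes are not reported here.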

Additional observations from a re-analysis of the deposited data

Results flagged for a closer look

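In 3 of the 10 genes every Fmr1CRE library lay below every wild-type library in forebrain and above every wild-type library in midbrain. Over all genes tested, 10.2% did not overlap in forebrain and 11.3% in midbrain, in either direction. The share of all genes with both was not counted, and the 10 genes were chosen with their levels in view. The genotype difference in midbrain minus that in forebrain was 6.80 on the log2 scale for *Avp* and 7.37 for *Oxt*, each with an adjusted p of 0.387 by edgeR. For *Gal* it was 1.28, with an adjusted p of 0.700. None of these passed the threshold. With the forebrain libraries of replicate 3 exchanged between the genotypes, all 3 genes overlapped between the genotypes in forebrain. The interaction was then 6.78 for *Avp*, 6.68 for *Oxt* and 1.08 for *Gal*, and edgeR gave adjusted p = 0.156, 0.161 and 0.316. Groups of 3 libraries were not searched for outlying samples.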

How the results depend on the processing

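The 10 genes kept the side of their main differences in most alternatives, and their adjusted p-values depended on the tool and on replicate 3. By edgeR 0 members passed in midbrain, where DESeq2 called 4, no filter on low counts 3 (*Hcrt*, *Avp* and *Oxt*) and a block for the replicate number 1 (*Avp*, adjusted p = 0.0263), and leaving out replicates gave 0 to 2, the 2 without replicate 3 of both genotypes or without Fmr1CRE replicate 3. In the interaction 0 members passed, DESeq2 called 1, no filter gave 2, and leaving out replicates gave 0 to 3, the 3 again without replicate 3. The block for the replicate number changed no other member's call. Libraries with the same number in both genotypes had deviations from their group means that correlated between -0.12 and 0.0693. For forebrain and midbrain libraries of the same mouse the values were between -0.0846 and 0.0841. As the libraries of 1 mouse did not stand out either, this measure cannot tell whether the number pairs libraries.

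Over all genes, forebrain went from 0 calls to 31 with DESeq2, 1 with 1 fit of all 18 libraries and 4 with the exchanged libraries. Midbrain went from 1 to 62 with DESeq2, 11 without a filter, 0 with at least 10 counts in every library, 0 with 1 fit of all libraries, and 0 to 4 when replicates were left out. Hindbrain went from 0 to 60 with DESeq2, 11 without a filter, 1 with 1 fit of all libraries, and 0 to 5 when replicates were left out. The sum of forebrain and midbrain went from 0 to 21 with DESeq2, 2 without a filter, 6 with the exchanged libraries, and 0 to 1 when replicates were left out. The interaction went from 0 to 24 with DESeq2, 5 without a filter, 1 with the mouse as a block, 1 with the exchanged libraries, and 0 to 7 when replicates were left out. Forebrain against midbrain, with 3908 calls, gave 2164 to 4246. The cause of these changes was not tested.

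Some directions turned. Leaving out replicates moved the log2 fold change of *Cartpt* in midbrain within -0.073 to 0.156, of *Trh* in hindbrain within -0.652 to 0.0678, of *Oxt* in the sum within -0.279 to 0.0796, of *Trh* in the sum within -0.0929 to 0.211, of *Gal* in the sum within -0.0079 to 0.11 and of *Cartpt* in the interaction within -0.0077 to 0.64. With the exchanged libraries *Oxt* in the sum was 0.28. Of 46 named listed genes, 35 kept their call between forebrain and midbrain in all alternatives, 11 lost it in at least 1 and 0 changed direction.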

Other observations

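A pair of transcription factors of the ventromedial hypothalamus, chosen after their values were seen, showed levels by library much like those of the peptide genes. *Nr5a1* stood at 0.197, 0 and 0.554 CPM in Fmr1CRE and 0.880, 0.685 and 0.196 CPM in wild-type forebrain, and at 0.651, 0.834 and 0.401 CPM in Fmr1CRE and 0, 0.0408 and 0.0342 CPM in wild-type midbrain. *Fezf1* stood at 0.0395, 0.329 and 1.06 CPM in Fmr1CRE and 0.704, 0.766 and 0.469 CPM in wild-type forebrain, and at 1.46, 1.06 and 0.602 CPM in Fmr1CRE and 0.131, 0 and 0.0342 CPM in wild-type midbrain. *Nkx2-1*, a factor of the tuberal hypothalamus, differed in that wild-type replicate 1 had 2.13 CPM in midbrain, as much as the Fmr1CRE mice with 2.16, 2.12 and 2.05 CPM, and the other wild-type mice had 0.449 and 0.616 CPM. Wild-type replicate 1 was also the wild-type mouse with the highest midbrain *Pmch*, *Agrp*, *Hcrt*, *Avp*, *Oxt*, *Ghrh* and *Trh*, but not *Pomc*, *Cartpt* or *Gal*. For *Oxt* and *Ghrh* this rested on 5 counts against 4 and 4.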
